A study of Mus musculus with 42 samples.

Results

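The genes described here are 10 mediators of activated myeloid cells, measured in bulk RNA of 42 MC38 tumors. They are Acod1, Nos2 and Ptgs2, which encode enzymes; Il1a, Il1b, Tnf and Il6, which encode inflammatory cytokines; Il1rn, which encodes the natural antagonist of the IL-1 receptor; and Il10 and Il27, which encode regulatory cytokines. They are 10 of the 26811 Ensembl gene identifiers in the matrix of estimated counts, were found by their GENCODE symbols, and all 10 passed the filter on low counts. The members were chosen by results of these tumors that were already known, but which comparison entered the choice is not recorded. The lower level of several of them, led by Acod1, when GM-CSF was blocked during aPD1 treatment was taken to be that comparison, and it is described here by values with no test. Every other comparison with aPD1 uses the same 6 aPD1 tumors, so that high values in them enter each, and none of the counts below is independent of the choice.

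MC38, a colon carcinoma line from C57BL/6 mice, was engrafted subcutaneously in female F1 mice of the cross CC075/UncJ x C57BL/6J at 8 to 12 weeks of age. From engraftment on, mice received aGMCSF (an antibody against the cytokine GM-CSF), aIL2RB (an antibody against the receptor beta chain through which NK and T cells sense IL-2 and IL-15), both antibodies, or their isotype controls. When tumors reached 75 to 110 mm3 the mice received 1 dose of aPD1, an antibody against the T cell checkpoint receptor PD-1, or its isotype control, and tumors were taken 48 h later. The groups were isotype control (n = 5), aPD1 (n = 6), aPD1 + aGMCSF (n = 9), aPD1 + aIL2RB (n = 11) and aPD1 + aGMCSF + aIL2RB (n = 11). The isotype control and aPD1 mice received the isotypes of the blocking antibodies. All tumors thus share 1 cell line, 1 host genotype and 1 time after aPD1, and no group received a blocking antibody without aPD1.

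Activated macrophages and monocytes make these mediators when microbial products, interferon gamma or other cytokines switch on NF-kB, AP-1 and STAT factors. Acod1 turns cis-aconitate of the citrate cycle into itaconate, Nos2 makes nitric oxide from arginine, and Ptgs2 starts the synthesis of prostaglandins. IL-1 and TNF amplify inflammation, Il1rn blocks the IL-1 receptor, IL-10 restrains macrophages, and the Il27 subunit pairs with Ebi3 to form IL-27, a cytokine that acts on T cells. In tumors such mediators are made by infiltrating myeloid cells and, for some of them, by stromal and tumor cells as well.

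Promoter sequence was matched by symbol for 7 of the 10 members, from RefSeq on GRCm38.p6. The sequences of Acod1, Il1rn and Tnf are shown because, of the matched members, these passed the test in aPD1 against isotype control and in both comparisons of an aIL2RB group with aPD1. Each is printed 5′ to 3′ on the gene's strand and ends at the base before the annotated gene start. Capitals mark any match, on either strand, to the NF-kB consensus site, the STAT element TTCNNNGAA, the interferon-stimulated response element (ISRE), the AP-1 element TGANTCA, the cyclic AMP element TGACGTCA or the TATA box TATAAA.
Acod1, chr14:103046762-103046976, plus strand: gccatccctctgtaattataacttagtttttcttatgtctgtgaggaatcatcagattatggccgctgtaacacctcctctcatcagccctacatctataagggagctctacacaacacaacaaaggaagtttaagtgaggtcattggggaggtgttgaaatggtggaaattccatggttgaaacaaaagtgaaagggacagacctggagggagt
Il1rn, chr2:24336610-24336852, plus strand: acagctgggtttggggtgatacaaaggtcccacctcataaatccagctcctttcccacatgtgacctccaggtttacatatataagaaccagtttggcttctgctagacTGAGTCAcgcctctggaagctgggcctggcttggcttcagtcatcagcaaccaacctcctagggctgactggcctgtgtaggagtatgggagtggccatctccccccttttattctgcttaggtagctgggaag
Tnf, chr17:35202008-35202257, minus strand: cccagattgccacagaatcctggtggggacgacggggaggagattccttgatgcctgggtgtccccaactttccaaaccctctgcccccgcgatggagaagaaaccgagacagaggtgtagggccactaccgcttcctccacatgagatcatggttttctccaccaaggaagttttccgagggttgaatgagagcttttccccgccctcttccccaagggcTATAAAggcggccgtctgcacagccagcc
The Acod1 window of 215 bases held none of these letters. RefSeq gives Il1rn 3 start sites, and the window of the first, 243 bases long, is shown, while the windows of the other two held no match. The Il1rn window shown held an AP-1 match that starts 134 bases before its end, and the Tnf window held a TATA box match that starts 29 bases before its end. Among 27025 promoters of 250 bases, 6.87% held an AP-1 match and 13% a TATA box match. Of the other matched members, Il6 held matches to the NF-kB consensus, which 7.01% of promoters hold, and to AP-1, Il1a held matches to AP-1 and the TATA box, and Il1b held a TATA box match. A match is a run of letters and not a measured binding site.

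Total estimated counts ran from 7155486 to 24101674 per tumor with a median of 20215382, and the lowest belonged to aPD1 + aGMCSF + aIL2RB replicate 4. Ribosomal RNA genes took 1.72% to 17.9% of the counts, and no 2 libraries agreed within sampling noise. Tumors with lower replicate numbers (22 tumors) and with higher ones (20 tumors) within a group deviated together, with a mean correlation of deviations from the group means of 0.0448 within such a set and -0.0899 between sets. This division is known from earlier results, the labels do not explain it, and results that depend on it are given within each set as well. The tumors held monocyte and macrophage RNA, since all 12 markers of these cells passed the filter, whereas of 9 neutrophil markers 4 (Retnlg, Ly6g, Ngp and Camp) fell below it. Fewer cells of a type and less RNA per cell cannot be told apart in bulk tumors.

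Levels between genes are compared per kilobase of exon. In the aPD1 tumors the mean was 36.9 CPM (counts of the gene relative to the scaled library total) per kilobase for Acod1, 20.6 for Nos2, 18.8 for Ptgs2, 15.1 for Il1rn, 9.99 for Il1b and 8.37 for Tnf. It was 1.49 for Il27, 1.32 for Il10, 0.764 for Il1a and 0.165 for Il6. The enzymes and the IL-1 antagonist thus gave most of the signal, and Il6 and Il1a rested on few counts. A count of 0 occurred for Il1a in aPD1 + aGMCSF + aIL2RB replicate 9, for Il6 in aPD1 + aGMCSF + aIL2RB replicate 5 and aPD1 + aIL2RB replicate 11, and for Il10 in aPD1 + aIL2RB replicate 2 and aPD1 + aGMCSF + aIL2RB replicate 7, where 3 counts would be 0.134 to 0.180 CPM. The aPD1 group had the highest mean of the 5 groups for 9 of the 10 members, the exception being Il6.

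**Figure D1:**
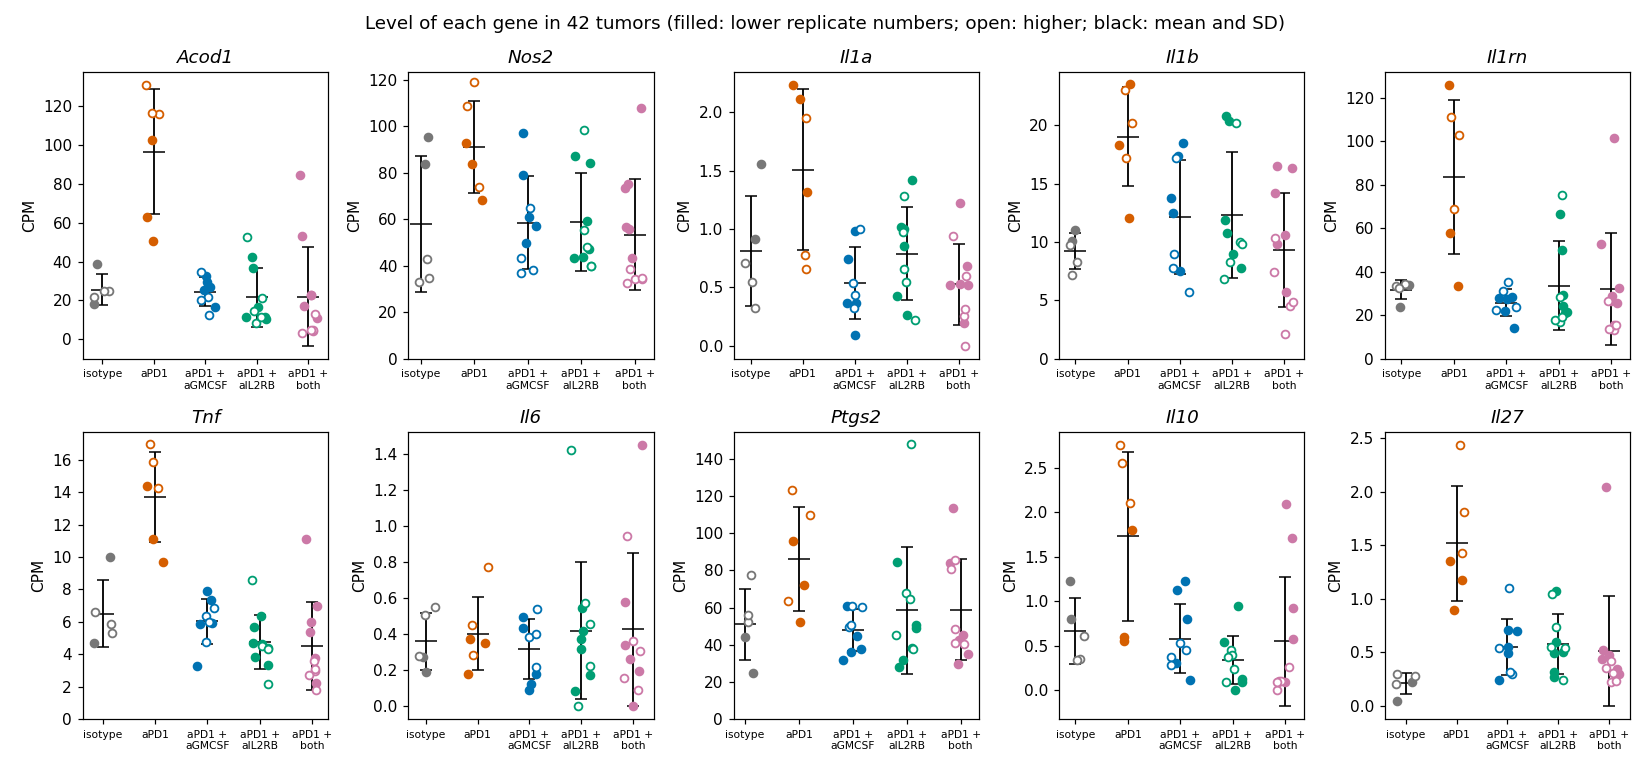
Level of each member in every tumor by group, in CPM on linear axes; each point is a tumor, filled for lower and open for higher replicate numbers, and the black mark with its bar is the group mean with its SD. For Acod1 the 6 aPD1 tumors lie between 50.9 and 131 CPM, above the 5 isotype control tumors.

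Treatment with aPD1 alone raised 4 of the 10 members over isotype control, Acod1, Il1rn, Tnf and Il27. Over all genes tested 6.17% were called higher in this comparison (edgeR quasi-likelihood test, adjusted p under 0.05). The members' median difference was 1.06 on the log2 scale, against a median of -0.00229 over all genes, and no member was lower. These are the 6 aPD1 tumors of the comparison taken to have chosen the members, so a high value in them enters this count as well. The groups did not overlap for Acod1, Il1b and Il27, with 3.38% of all genes non-overlapping and higher.

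Acod1, on the plus strand of chromosome 14 (GRCm38 chr14:103046977-103056573), measured 18, 38.7, 24.7, 24.6 and 21.9 CPM in isotype control replicates 1 to 5. In aPD1 replicates 1 to 6 it measured 103, 50.9, 63.2, 116, 131 and 116 CPM. Every aPD1 tumor lay above every isotype control tumor, and replicates 2 and 3 of aPD1 were the lowest of their group. The means of 25.6 ± 7.85 (SD, n = 5) and 96.7 ± 32.3 CPM (SD, n = 6) corresponded to a 3.78-fold rise (log2 1.92 ± 0.563 SE, edgeR adjusted p = 0.0261). The call was lost, with adjusted p between 0.0503 and 0.0655, when isotype control replicate 1, 3, 4 or 5 or aPD1 replicate 4 or 5 was left out.

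Il27 (chr7:126589010-126594941, minus strand) showed the largest fold among the members. It measured 0.0472, 0.228, 0.202, 0.295 and 0.280 CPM in isotype control replicates 1 to 5, which is 1 to 7 counts per tumor, and 1.18, 0.90, 1.36, 1.81, 1.43 and 2.44 CPM in aPD1 replicates 1 to 6. The 2 groups were fully separate, and isotype control replicate 1 was the lowest tumor. The rise was 7.03-fold (log2 2.81 ± 0.514 SE, edgeR adjusted p = 0.000828) and was called with each tumor left out in turn (log2 2.57 to 2.97). Exons of Il27 overlap those of Apobr on the opposite strand, and whether the counting used the strand is not given in the sources used here. Its partner subunit Ebi3 had means of 4.95 and 7.06 CPM in isotype control and aPD1 tumors, a difference of 0.51 ± 0.246 (edgeR adjusted p = 0.191).

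Il1rn (chr2:24336853-24351494, plus strand) measured 23.9, 33.9, 33.3, 34.6 and 32.5 CPM in the isotype control tumors. In aPD1 replicates 1 to 6 it measured 126, 33.6, 57.8, 111, 103 and 69.0 CPM. The groups overlapped through aPD1 replicate 2, which lay within the isotype control range. The rise was 2.63-fold (log2 1.40 ± 0.416 SE, edgeR adjusted p = 0.0281), and the call was lost, with adjusted p between 0.0516 and 0.0752, without isotype control replicate 1, 2, 3 or 4 or aPD1 replicate 1, 4 or 5.

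Tnf (chr17:35199381-35202007, minus strand) measured 4.72, 10.0, 5.90, 5.32 and 6.63 CPM in isotype control tumors and 14.4, 9.72, 11.1, 17, 15.9 and 14.2 CPM in aPD1 tumors. Isotype control replicate 2 lay above aPD1 replicate 2, and the groups were otherwise separate. The rise was 2.10-fold (log2 1.07 ± 0.311 SE, edgeR adjusted p = 0.0241), and it was lost without isotype control replicate 1, 3 or 4 or aPD1 replicate 4 (adjusted p 0.0537 to 0.0731).

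The other 6 members did not pass. Il1b (chr2:129364570-129371139, minus strand) came closest. It measured 11.0, 10.1, 9.78, 8.27 and 7.15 CPM in isotype control tumors and 12.1 to 23.5 CPM, median 19.3, in aPD1 tumors. The groups did not overlap, the difference was 1.04 ± 0.357 (edgeR adjusted p = 0.0588), and the test was passed with aPD1 replicate 2 left out (0.0358), with DESeq2 (0.0476) and in a fit of the 2 groups alone (0.00362). For Ptgs2 (chr1:150100031-150108227, plus strand) the isotype control values were 25, 44.0, 52.4, 77.7 and 55.9 CPM and the aPD1 values 52.3 to 123, median 83.8; the difference was 0.75 ± 0.34 (edgeR adjusted p = 0.161). The groups overlapped for Ptgs2.

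Nos2 (chr11:78920787-78960254, plus strand) measured 83.8, 95.3, 33, 43 and 34.8 CPM in isotype control replicates 1 to 5 and 68.3 to 119 CPM, median 88.2, in aPD1 tumors. Isotype control replicates 1 and 2 lay within the aPD1 range and replicates 3 to 5 below it, and the difference over all tumors was 0.65 ± 0.303 (edgeR adjusted p = 0.178). Il10 (chr1:131019845-131024974, plus strand) measured 0.803, 1.23, 0.353, 0.338 and 0.607 CPM in isotype control tumors and 1.80, 0.60, 0.553, 2.75, 2.56 and 2.11 CPM in aPD1 tumors. Here aPD1 replicates 2 and 3 lay within the isotype control range and the other 4 above it (log2 1.37 ± 0.726 SE, edgeR adjusted p = 0.24). Nos2 thus split by replicate number in isotype control tumors. Its aPD1 values overlapped between the sets, at 68.3 to 92.8 CPM in the lower and 73.9 to 119 CPM in the higher numbers. Il10 split in both groups, with aPD1 tumors reaching 1.80 CPM in the lower numbers and starting at 2.11 CPM in the higher ones.

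Il1a (chr2:129299610-129309972, minus strand), an alarmin of the IL-1 family, measured 1.56, 0.913, 0.706, 0.549 and 0.327 CPM in isotype control tumors and 0.656 to 2.23 CPM, median 1.64, in aPD1 tumors (log2 0.88 ± 0.532 SE, edgeR adjusted p = 0.31). Il6 (chr5:30013114-30019981, plus strand) measured 0.189, 0.274, 0.504, 0.549 and 0.280 CPM in isotype control tumors and 0.18 to 0.775 CPM, median 0.362, in aPD1 tumors (0.17 ± 0.679, edgeR adjusted p = 0.912). The groups overlapped for both genes. Il1a shares antisense exons with Gm14023, and its estimated count was not a whole number in 25 tumors; with the counts of the pair summed, an alternative added after seeing the data, its difference was 0.75. The Il1b exons also overlap the antisense gene Il1bos, which reached at most 6 counts.

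Markers of infiltrating cells moved with these genes, and their part in the result was not tested. Of the 12 monocyte and macrophage markers 10 were higher in aPD1 than in isotype control tumors, and their summed level ran from 2573 to 3088 CPM in isotype control and from 3021 to 5783 CPM in aPD1 tumors. The 8 T and NK cell markers summed to 34.1 to 51.0 CPM in isotype control and to 58.8 to 124 CPM in aPD1 tumors, without overlap, although none of the 8 passed the test by edgeR or DESeq2 and none had an unadjusted p under 0.05. Of 5 neutrophil markers tested Csf3r was higher (1.49, edgeR adjusted p = 0.00211), and of 5 fibroblast markers Col1a1 (0.84, 0.0453), Bgn (0.71, 0.0179) and Postn (0.55, 0.039) were higher and Dcn was lower (-0.33, 0.023). The 8 dendritic cell markers summed to 73.5 to 91.9 CPM and to 97.0 to 149 CPM, with 1 called, Irf8. The leukocyte gene Ptprc ran from 150 to 180.4 CPM and from 205 to 412 CPM. The mean log2 CPM of the 12 markers differed by 0.714 between the groups. Taken as a difference relative to this marker mean, with no test, Il27 differed by 1.68, Acod1 by 1.17 and Il1rn by 0.56. Il10 differed by 0.44, Tnf by 0.37, Il1b by 0.30, Il1a by 0.12, Ptgs2 by 0.07, Nos2 by 0.05 and Il6 by -0.61.

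**Figure D2:**
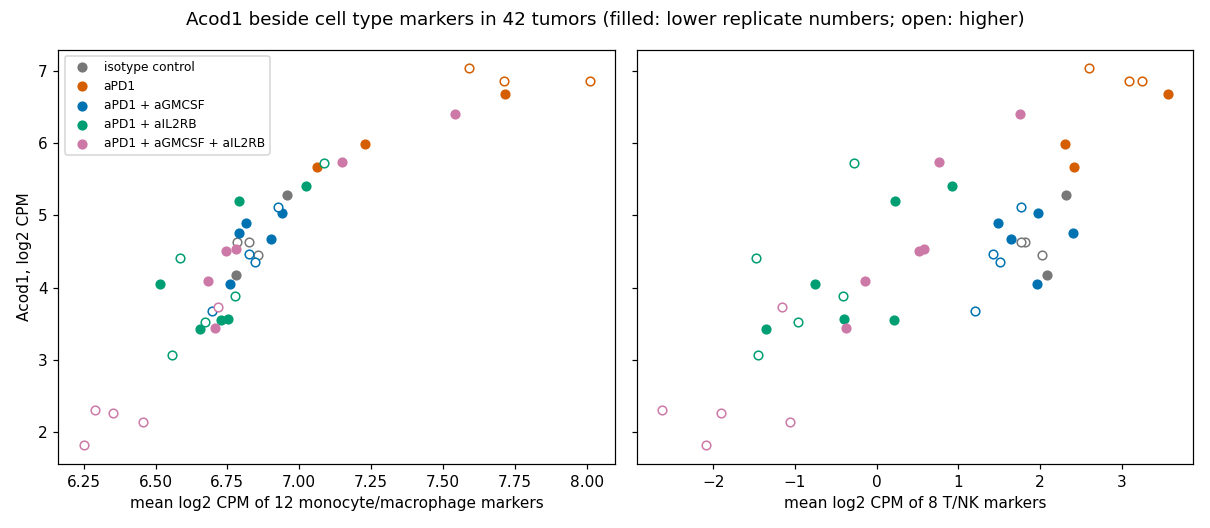
Log2 CPM of Acod1 (vertical) against the mean log2 CPM of 12 monocyte and macrophage markers (left) and of 8 T and NK cell markers (right) in 42 tumors, colored by group, filled for lower and open for higher replicate numbers. On the left Acod1 rises with the markers, with Pearson's r of 0.919 over all tumors and 0.860 with group means subtracted, and on the right the points spread more widely.

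With GM-CSF blocked, the comparison taken to have chosen the members, the values are a description. Acod1 ran from 12.7 to 34.7 CPM, median 25.5, in the 9 aPD1 + aGMCSF tumors, all below the 6 aPD1 tumors (log2 -1.98 ± 0.464 SE, 3.94-fold lower). Tnf ran from 3.27 to 7.89 CPM, median 5.98, also below every aPD1 tumor (log2 -1.18 ± 0.263 SE), with 2.2% of all genes non-overlapping and lower. Il1rn ran from 14 to 35.4 CPM, median 27.4, and overlapped aPD1 replicate 2 (log2 -1.69 ± 0.349 SE).

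Il27 ran from 0.247 to 1.10 CPM, median 0.537 (log2 -1.45 ± 0.389 SE), Il10 from 0.123 to 1.23 CPM, median 0.45 (log2 -1.55 ± 0.615 SE), and Il1a from 0.0888 to 1.00 CPM, median 0.431 (log2 -1.47 ± 0.463 SE). Nos2 ran from 36.8 to 97.2 CPM, median 57.1 (log2 -0.64 ± 0.259 SE), Ptgs2 from 31.7 to 60.9 CPM, median 49.6 (log2 -0.84 ± 0.289 SE), and Il1b from 5.71 to 18.5 CPM, median 12.5 (log2 -0.65 ± 0.301 SE). Il6 ran from 0.087 to 0.537 CPM, median 0.383 (log2 -0.37 ± 0.60 SE). All 10 members had a negative difference, with Acod1 at the low end and Il6 nearest 0. The macrophage markers summed to 2315 to 2762 CPM in these tumors, and the difference from aPD1 was negative for all 12. The T and NK cell markers summed to 24.02 to 64.2 CPM, beside 58.8 to 124 CPM in aPD1 tumors. Their differences were all negative, from -0.966 for Ncr1 to -1.504 for Nkg7. Among dendritic cell markers Clec9a (0.0846) and Zbtb46 (0.366) were positive and the others negative, down to -1.83 for Cd209a. Fibroblast markers split, with Col1a1 (-0.585), Bgn (-0.545) and Postn (-0.43) negative and Dcn (0.529) and Pdgfra (0.318) positive. Of the 5 neutrophil markers tested S100a9 was at -2.62, Cxcr2 at -1.93, Csf3r at -1.35, S100a8 at -1.02 and Gsr at -0.07, beside -0.721 for the mean of the macrophage markers. The part of these markers in the result was not tested.

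With the IL-2 receptor beta chain blocked, 5 of the 10 members were lower than with aPD1 alone, Acod1, Tnf, Il1rn, Il10 and Il27, in a comparison where 14.5% of all genes were lower. The members' median difference was -1.12, and the median over all genes was 0.00. This comparison uses the same 6 aPD1 tumors as the comparison taken to have chosen the members, so a high value in those tumors enters both.

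Acod1 ran from 8.26 to 52.9 CPM, median 14.6, in the 11 aPD1 + aIL2RB tumors. Only the highest of them, at 52.9 CPM, exceeded the lowest aPD1 tumor, at 50.9 CPM. The fall was 4.50-fold (log2 -2.17 ± 0.439 SE, edgeR adjusted p = 0.000191). Tnf ran from 2.16 to 8.58 CPM, median 4.52, with no overlap, and 2.99% of all genes were non-overlapping and lower. Its fall was 2.87-fold (log2 -1.52 ± 0.25 SE, edgeR adjusted p = 1.02e-05).

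Il1rn ran from 16.8 to 75.3 CPM, median 24.2, and Il27 from 0.245 to 1.07 CPM, median 0.539, each overlapping the aPD1 range. Il1rn fell by 1.31 ± 0.329 on the log2 scale (edgeR adjusted p = 0.00215) and Il27 by 1.39 ± 0.367 (edgeR adjusted p = 0.00326). Il10 ran from 0 to 0.954 CPM, median 0.379, so that the 4 higher aPD1 tumors lay above every tumor of this group. Its fall was 5.11-fold (log2 -2.35 ± 0.60 SE, edgeR adjusted p = 0.00231). These 5 calls held with each tumor left out in turn.

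The inflammatory enzymes Nos2 and Ptgs2 did not pass. Nos2 ran from 39.8 to 98.3 CPM, median 48.1 (log2 -0.63 ± 0.248 SE, edgeR adjusted p = 0.0513), and it passed without aPD1 replicate 2, aPD1 + aIL2RB replicate 3, 4 or 9 or aPD1 + aGMCSF + aIL2RB replicate 4 (adjusted p 0.0197 to 0.0491) and in a fit of the 2 groups alone (0.0166). Ptgs2 ran from 28.1 to 148 CPM, median 48.8 (log2 -0.55 ± 0.277 SE, adjusted p = 0.137), and passed without aPD1 + aIL2RB replicate 9 (0.0125). Il1b ran from 6.83 to 20.9 CPM, median 10.0 (log2 -0.63 ± 0.287 SE, edgeR adjusted p = 0.103, and 0.047 in a fit of the 2 groups alone), Il6 from 0 to 1.42 CPM, median 0.373 (log2 0.03 ± 0.567 SE, adjusted p = 0.975), and Il1a from 0.225 to 1.42 CPM, median 0.856 (log2 -0.93 ± 0.432 SE, adjusted p = 0.108). With the counts of Gm14023 added, Il1a was called lower (log2 -0.78, edgeR adjusted p = 0.0315), so its call depends on how reads of the overlapping pair are divided.

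Markers of T and NK cells, which carry the target of aIL2RB, also differed in level. The 8 T and NK cell markers summed to 58.8 to 124 CPM in aPD1 and to 2.92 to 29.1 CPM in aPD1 + aIL2RB tumors, and the macrophage markers to 2158 to 3088 CPM in the latter, with 10 of 12 macrophage markers lower. Of 8 dendritic cell markers 5 were called, with Xcr1 at -2.33 (edgeR adjusted p = 3.99e-05), Batf3 at -1.86 (0.00127), Cd80 at -1.16 (0.000853) and Irf8 at -0.91 (7.53e-05) lower and Zbtb46 at 0.34 (0.00249) higher, and of 5 neutrophil markers Csf3r was lower (-1.57, 3.21e-06). All 5 fibroblast markers were called, Postn (-0.71), Bgn (-0.68) and Col1a1 (-0.67) lower and Dcn (0.93) and Pdgfra (0.81) higher. Their part in the result was not tested. Relative to the macrophage marker mean, which differed by -0.813, Acod1 differed by -1.54, Il10 by -1.29 and Tnf by -0.74, as a description. Il1rn differed by -0.56, Il27 by -0.48 and Il1a by -0.07. Il1b differed by 0.11, Nos2 by 0.13, Ptgs2 by 0.16 and Il6 by 0.63.

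With both antibodies 8 of the 10 members were lower than with aPD1 alone, all but Ptgs2 and Il6, beside 14.3% of all genes, and again against the same 6 aPD1 tumors. The members' median difference was -1.44, and the median over all genes was 0.01. Acod1 ran from 3.43 to 84.9 CPM, median 13.1 (log2 -2.17 ± 0.441 SE, 4.49-fold lower, edgeR adjusted p = 0.000239). The 11 tumors covered a wide range, with replicate 1 at 84.9 and replicate 4, the library of lowest depth, at 53.5 CPM inside the aPD1 range. Of 12 macrophage markers 10 were lower than with aPD1, summing to 1859 to 3858 CPM, and all 8 T and NK cell markers were lower, summing to 0.719 to 60.8 CPM. Of 8 dendritic cell markers 5 were called, Xcr1 (-2.01), Batf3 (-1.76), Irf8 (-1.03) and Cd80 (-0.99) lower and Zbtb46 (0.38) higher. Of 5 neutrophil markers Csf3r (-1.39), Cxcr2 (-1.32) and Gsr (-0.16) were lower, and of 5 fibroblast markers Bgn was lower (-0.47) and Dcn (0.89) and Pdgfra (0.82) were higher. The part of these markers in the result was not tested. The mean of the macrophage markers differed by -0.856.

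Tnf ran from 1.79 to 11.1 CPM, median 3.58, and fell by 1.62 ± 0.252 on the log2 scale (edgeR adjusted p = 6.13e-06). Il1rn ran from 13.4 to 101 CPM, median 26.4 (log2 -1.39 ± 0.33 SE, edgeR adjusted p = 0.00132), and Il27 from 0.223 to 2.04 CPM, median 0.359 (log2 -1.56 ± 0.372 SE, edgeR adjusted p = 0.00125). Il1b ran from 2.09 to 16.6 CPM, median 9.86 (log2 -1.04 ± 0.289 SE, edgeR adjusted p = 0.00545). Replicate 1 was the highest tumor of the group for Acod1, Tnf, Il1rn and Il27, and lay within the aPD1 range for each of them.

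Il1a ran from 0 to 1.23 CPM, median 0.525 (log2 -1.49 ± 0.441 SE, edgeR adjusted p = 0.00842), and Nos2 from 32.4 to 108 CPM, median 43.2 (log2 -0.77 ± 0.248 SE, edgeR adjusted p = 0.0163). Il10 ran from 0 to 2.10 CPM, median 0.104 (log2 -1.72 ± 0.592 SE, edgeR adjusted p = 0.0245). The call of Nos2 was lost without aPD1 replicate 4 (adjusted p = 0.0576), and that of Il10 without aPD1 replicate 4 (0.0749) or 5 (0.0575) or in a fit of the 2 groups alone (0.068). Ptgs2 ran from 29.9 to 113 CPM, median 45.4 (log2 -0.56 ± 0.277 SE, adjusted p = 0.137), and passed without aPD1 + aGMCSF + aIL2RB replicate 1 (0.0447), while Il6 ran from 0 to 1.45 CPM, median 0.308 (log2 -0.04 ± 0.575 SE, adjusted p = 0.972).

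**Figure D3:**
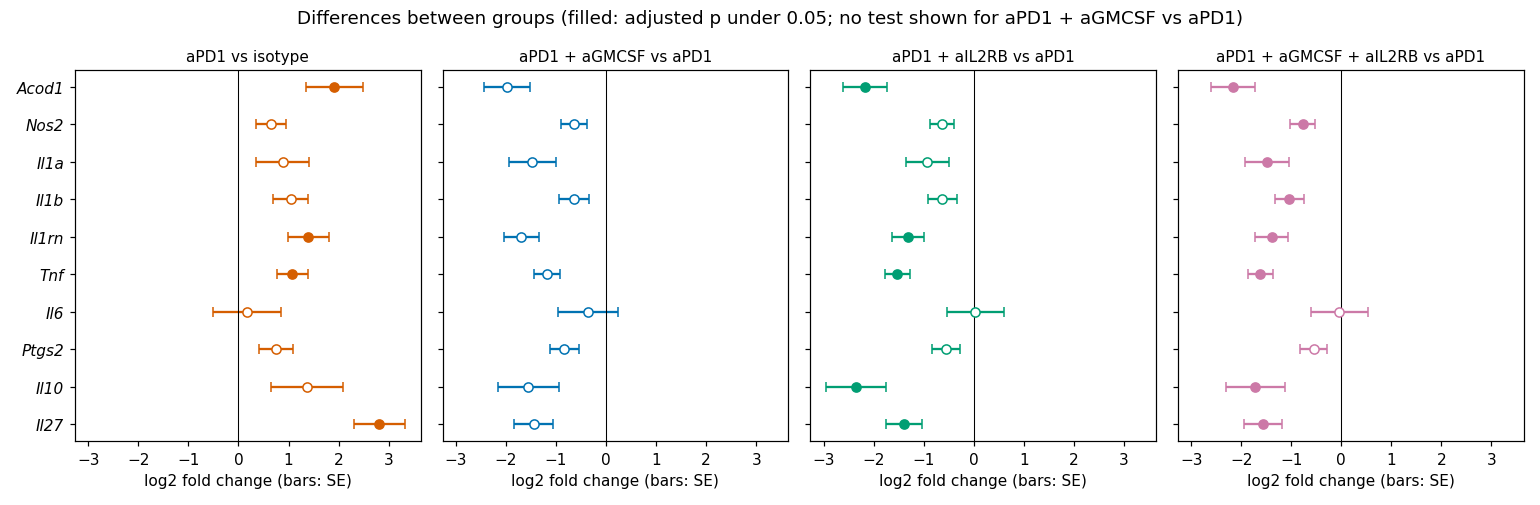
Log2 fold change of each member with its standard error in the comparisons of aPD1 with isotype control and of each blocked group with aPD1; filled points passed the edgeR threshold, and no test is shown for aPD1 + aGMCSF. Acod1 is at 1.92 in the first and at -1.98, -2.17 and -2.17 in the others, while Il6 stays near 0.

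Against isotype control, over all tumors of the blocked groups, no member was called. None of the 10 members was called in aPD1 + aGMCSF, aPD1 + aIL2RB or aPD1 + aGMCSF + aIL2RB against isotype control by edgeR or by DESeq2, in comparisons where 0%, 3.2% and 10.2% of all genes were called. At an unadjusted p under 0.05, reached by 5.54%, 18.1% and 26.7% of all genes, only Il27 was found in each of them, with differences of 1.36 ± 0.491 (edgeR adjusted p = 0.828), 1.42 ± 0.478 (0.084) and 1.25 ± 0.481 (0.08). The mean of Acod1 was 24.6 ± 7.34 CPM with aPD1 + aGMCSF (SD, n = 9), 21.6 ± 15.2 CPM with aPD1 + aIL2RB (SD, n = 11) and 22 ± 25.3 CPM with aPD1 + aGMCSF + aIL2RB (SD, n = 11), beside 25.6 CPM in isotype control tumors. The last of these groups was split by replicate number, with 35.3 CPM in the lower and 6.08 CPM in the higher numbers, beside 28.4 and 23.8 CPM in isotype control tumors. Within the higher numbers 3 of 10 members were lower with aPD1 + aGMCSF + aIL2RB than in isotype control tumors, beside 6.52% of all genes, namely Acod1 (-1.97, edgeR adjusted p = 0.00842), Tnf (-1.07, 0.0152) and Il10 (-1.82, 0.042). A difference that was not called is not shown to be absent.

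Among the blocked groups themselves, over all their tumors, no member was called by edgeR or DESeq2 and none reached an unadjusted p under 0.05. The share of all genes called was 1.52% for aPD1 + aIL2RB against aPD1 + aGMCSF, 2.13% for aPD1 + aGMCSF + aIL2RB against aPD1 + aGMCSF, and 0.00591% for aPD1 + aGMCSF + aIL2RB against aPD1 + aIL2RB, and the shares at an unadjusted p under 0.05 were 13.5%, 17.3% and 7.16%. Within the higher replicate numbers 2 of 10 members were lower with aPD1 + aGMCSF + aIL2RB than with aPD1 + aGMCSF, Acod1 (-1.89, edgeR adjusted p = 0.0116) and Tnf (-1.08, 0.014), beside 4.93% of all genes. Against aPD1 + aIL2RB there, Acod1 alone was lower (-1.84, edgeR adjusted p = 0.0339), beside 1.51% of all genes.

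The design crosses the 2 blockades, so the difference made by aIL2RB can be compared with and without aGMCSF. A positive value means that aIL2RB lowered a gene less once aGMCSF was present. The term contains the difference between aPD1 + aGMCSF and aPD1 taken to have chosen the members, so its values are a description with no test. It was 1.98 ± 0.608 (SE) for Acod1, 1.62 ± 0.454 for Il1rn and 1.09 ± 0.347 for Tnf. It was 2.19 ± 0.835 for Il10, 1.28 for Il27 and 0.84 for Ptgs2.

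The size of several differences varied with the replicate set. In the aPD1 + aGMCSF + aIL2RB group Acod1 measured 84.9, 22.7, 10.8, 53.5, 23 and 17 CPM in replicates 1 to 6 and 4.31, 4.82, 3.43, 13.1 and 4.71 CPM in replicates 7 to 11, means of 35.3 and 6.08 CPM. The difference from aPD1 was -1.05 within the lower numbers (edgeR adjusted p = 0.208) and -4.34 within the higher ones (2.43e-07), and the change between the sets was itself called (-3.27 ± 0.756, edgeR adjusted p = 0.00576). Tnf (-1.47 ± 0.468, adjusted p = 0.0404), Nos2 (-1.28 ± 0.372, 0.0239) and Il10 (-4.17 ± 1.13, 0.014) differed between the sets in the same direction, where 9.18% of all genes did in either direction.

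For Il10 the group means of this blockade were 0.919 CPM in the lower and 0.114 CPM in the higher numbers. The T and NK markers of the same tumors summed to 10.5 to 60.8 CPM in the lower and to 0.719 to 4.97 CPM in the higher numbers, and the macrophage markers to 2682 to 3858 and to 1859 to 2192 CPM. Both marker sums were separate between the sets, and their part in the result was not tested. The Acod1 difference between aPD1 + aGMCSF + aIL2RB and aPD1 + aIL2RB also varied between the sets (-2.54 ± 0.658, edgeR adjusted p = 0.0338, beside 1.94% of all genes).

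The difference between aPD1 and isotype control tumors did not pass a test of change between the sets for any member, beside 0.0709% of all genes called. With so few genes called, nothing is read from this count. The largest changes were 2.56 ± 1.23 for Il10 (edgeR adjusted p = 0.459) and 1.58 ± 0.442 for Nos2 (0.17). Within the lower numbers (2 isotype control and 3 aPD1 tumors) no member was called, beside 0.00575% of all genes called higher. Within the higher numbers (3 and 3 tumors) 6 of 10 members were higher, beside 9.33% of all genes. Acod1 had a difference of 2.36 there (edgeR adjusted p = 0.00292), Nos2 of 1.45 (0.00095), Il10 of 2.51 (0.00407), Il27 of 2.85 (0.00153), Tnf of 1.41 (0.00343) and Il1rn of 1.5 (0.0168). In the lower numbers Nos2 was at -0.14 (0.915) and Il10 at -0.06 (0.994), while Il27 was at 2.99 (0.193).

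For aPD1 + aIL2RB against aPD1, 2 of 10 members were lower within the lower numbers, Acod1 (-1.76, edgeR adjusted p = 0.0164) and Tnf (-1.31, 0.01), beside 8.84% of all genes. Within the higher numbers 6 of 10 were lower, beside 13.3% of all genes, with Acod1 at -2.50 (0.000147) and Tnf at -1.72 (5.16e-05). For aPD1 + aGMCSF + aIL2RB against aPD1 none was called within the lower numbers, where 2.45% of all genes were lower, and 7 of 10 were lower within the higher numbers, beside 16.7%. Over all groups Nos2 was lower in the higher numbers by 0.51 ± 0.137 on the log2 scale (edgeR adjusted p = 0.00478) and Il1b by 0.45 ± 0.171 (0.0466), 2 of 10 members beside 11.5% of all genes.

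**Figure D4:**
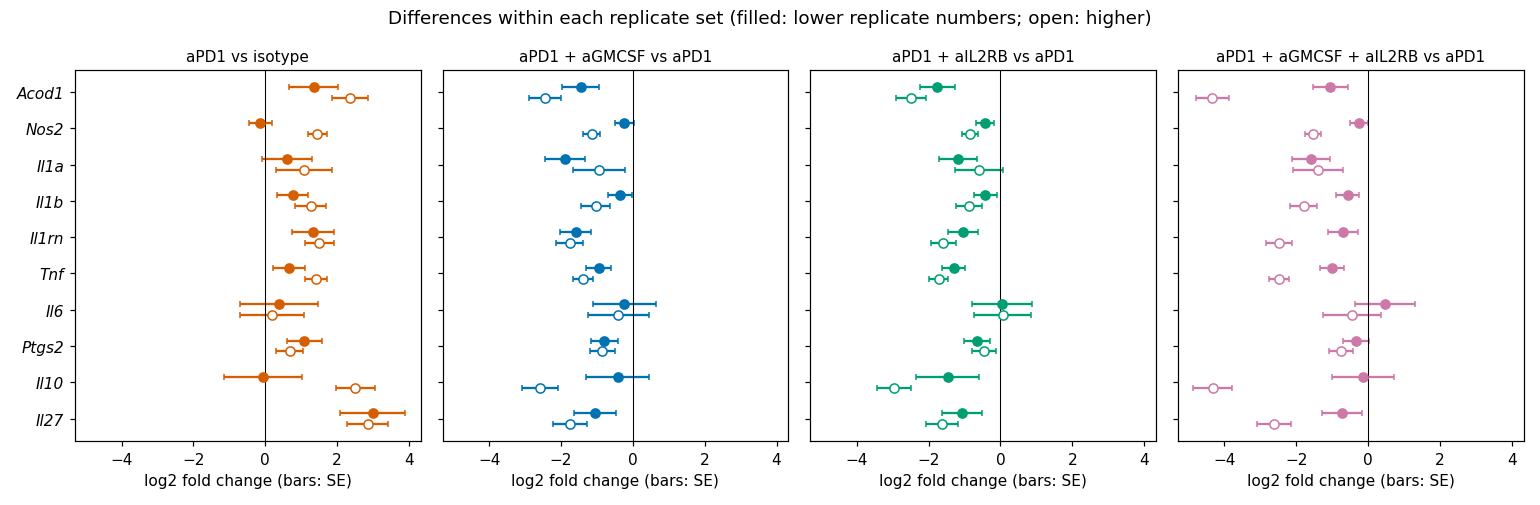
Log2 fold change of each member with its standard error, within the tumors of lower replicate numbers (filled) and of higher ones (open), for 4 comparisons. For aPD1 + aGMCSF + aIL2RB against aPD1, Acod1 is at -1.05 and -4.34.

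The pathway genes around the members were examined as lists, whose lead genes include receptors and inhibitors. Their counts stand beside 6.17% of all genes called higher in aPD1 against isotype control, and 14.5% and 14.3% called lower in aPD1 + aIL2RB and aPD1 + aGMCSF + aIL2RB against aPD1; nothing is called particular to a list from them. Of 15 genes for IL-1 receptors and signaling, 3 rose with aPD1: Il18bp, the decoy of IL-18 (log2 1.40 ± 0.37 SE, edgeR adjusted p = 0.0141), Irak3, an inhibitor of IL-1 signaling (1.03 ± 0.246, 0.00754), and the receptor Il1r1 (0.86 ± 0.256, 0.028). The list's median was 0.461. In aPD1 + aIL2RB against aPD1, 8 of 15 were lower, with Il18r1, a receptor chain carried by T and NK cells, at -2.62 (8.08e-06), and in aPD1 + aGMCSF + aIL2RB against aPD1 7 of 15 were lower.

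Of 12 TNF receptor and signaling genes tested 3 rose with aPD1, led by the receptor Tnfrsf1b (0.51 ± 0.127, edgeR adjusted p = 0.0097), while DESeq2 called 5, and 6 and 8 were lower in aPD1 + aIL2RB and aPD1 + aGMCSF + aIL2RB than in aPD1 tumors. Of 15 NF-kB factors and inhibitors 4 rose with aPD1, among them the kinase Ikbke (1.04 ± 0.226, 0.00379), the NF-kB cofactor Bcl3 (0.93 ± 0.283, 0.0312) and the subunit Rel (0.44 ± 0.118, 0.0154), and 8 and 6 were lower in the same comparisons. Bcl3 fell by 1.34 with aIL2RB (1.94e-05).

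Of 18 receptors, partners and signaling genes of IL-6, IL-10 and IL-27, 4 rose with aPD1 by edgeR and 6 were called by DESeq2, led by the IL-10 receptor Il10ra (0.88 ± 0.246, edgeR adjusted p = 0.0189) and the kinase Tyk2 (0.48 ± 0.127, 0.015). In aPD1 + aIL2RB against aPD1, 10 were lower, including Il10ra (-1.24, 6.93e-06), the Il27 partner Ebi3 (-1.05, 0.000101) and the feedback inhibitor Socs3 (-0.81, 0.000229), and 1 was higher, the shared receptor chain Il6st (0.22, 0.000437). With both antibodies the counts were again 10 lower and 1 higher, the latter Il6st at 0.28 (2.22e-05). Of 11 genes of the interferon gamma pathway 5 rose with aPD1, led by Irf8 (0.84 ± 0.212, 0.0109) and Irf5 (0.52 ± 0.156, 0.0307). In aPD1 + aIL2RB 7 were lower, with Ifng itself at -2.28 (0.000683), and in aPD1 + aGMCSF + aIL2RB 6 were lower.

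Arginine metabolism, which supplies Nos2, was examined next. Of 12 genes Ass1, which rebuilds arginine from citrulline, was the only one called higher with aPD1 by edgeR (1.24 ± 0.395, adjusted p = 0.0398), while DESeq2 called 3. In aPD1 + aIL2RB the arginine transporter Slc7a2 fell by 1.60 (edgeR adjusted p = 0.000558) and Ass1 by 1.54 (0.000228). There 5 of the 12 were lower, among them Ddah1 (-0.64, 0.0199), and Ddah2 was higher (0.57, 0.000204). In aPD1 + aGMCSF + aIL2RB 5 were lower, with Ass1 at -1.72 (6.72e-05), and 3 were higher, Nos1 (0.97, 0.0147), Nos3 (0.63, 0.00553) and Ddah2 (0.45, 0.00247).

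Of 12 prostaglandin genes tested none was called with aPD1 by edgeR or DESeq2 and 3 had an unadjusted p under 0.05, and in aPD1 + aIL2RB 5 were lower, with the receptor Ptger2 at -1.27 (edgeR adjusted p = 0.00227), thromboxane synthase Tbxas1 at -1.01 (9.38e-06) and the receptor Ptger4 at -0.80 (4.57e-05). The prostaglandin E synthase Ptges, which acts after Ptgs2, was at -0.07 ± 0.0751 (0.564). Of 18 genes of the citrate cycle and the itaconate and Nrf2 responses, Sdhb, a subunit of the dehydrogenase that itaconate inhibits, was the only one to rise with aPD1 (0.22 ± 0.0609, 0.0197), a share near that of all genes, and DESeq2 also called 1. In aPD1 + aIL2RB Sdhb fell by 0.33 (3.22e-06), the stress factor Atf3 by 1.05 (0.00039) and heme oxygenase Hmox1 by 0.76 (0.0246), 5 were lower in all, and Clybl was higher (0.27, 0.0468). This list's median was -0.03 with aPD1 and -0.04 with aIL2RB, near that of all genes.

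The members varied more between tumors of a group than a typical gene did. The median SD of log2 CPM was 0.537 for members and 0.204 for all genes in isotype control tumors, 0.516 and 0.232 in aPD1, 0.522 and 0.196 in aPD1 + aGMCSF, 0.72 and 0.222 in aPD1 + aIL2RB, and 0.893 and 0.226 in aPD1 + aGMCSF + aIL2RB tumors. The members include genes of few counts, for which counting error widens the SD.

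With group means subtracted, the 45 pairs of members had correlations over 42 tumors from -0.07 (Il1a with Il27) to 0.90 (Acod1 with Il1rn), median 0.43. Acod1 varied with Tnf (0.855), Nos2 (0.744) and Il10 (0.699) as well. The mean of the macrophage markers had correlations over the 42 tumors of 0.919 with Acod1, 0.890 with Il1rn, 0.883 with Tnf, 0.760 with Il10, 0.744 with Il27, 0.718 with Nos2, 0.695 with Il1b, 0.549 with Ptgs2, 0.433 with Il1a and 0.271 with Il6. Group means were not subtracted for these. The T and NK marker mean had a lower correlation with each member, such as 0.801 with Tnf and 0.7998 with Acod1. With group means subtracted, the T and NK correlation was the higher for Nos2 (0.671 against 0.629), Il1b (0.6595 against 0.622) and Il1a (0.241 against 0.159). For the other members the macrophage correlation was the higher, as for Acod1 (0.8599 against 0.809). These values are descriptions over tumors that share groups and libraries, and the low ones belong in part to genes of few counts.

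**Figure D5:**
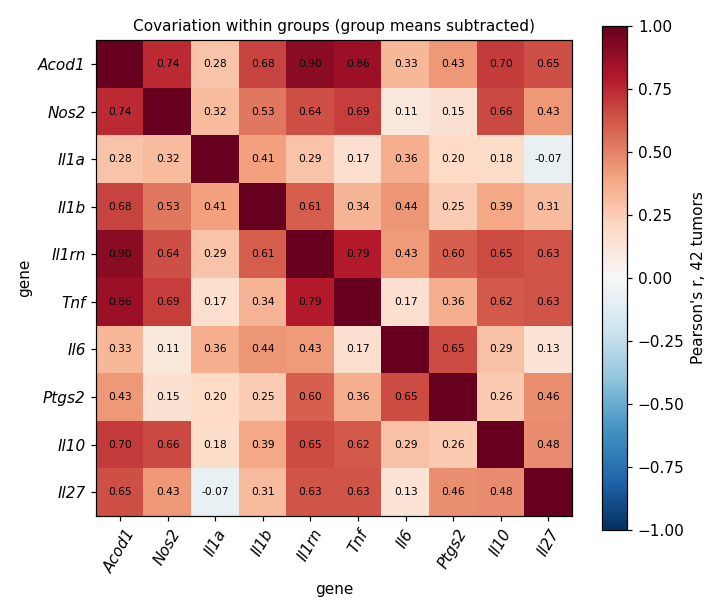
Pearson's r of log2 CPM for each pair of members over 42 tumors, with group means subtracted. The strongest pair is Acod1 with Il1rn at 0.90 and the lowest Il1a with Il27 at -0.07.

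The genes closest in pattern, by Pearson's r of log2 CPM over 42 tumors, were Cyba (0.963), Fcgr4 (0.962) and Slc15a3 (0.960) for Acod1. For Tnf they were Itgb2 (0.924), Slc15a3 (0.921) and Cyba (0.920), and for Il1rn Gm49339 (0.937), Clec4e (0.922) and Xdh (0.918). Acod1 and Tnf thus shared 2 of their 3 closest genes. For Nos2 they were Stat3 (0.883), Pfkfb3 (0.850) and Zbp1 (0.848), for Ptgs2 Il1rl1 (0.864), Plin2 (0.860) and C5ar1 (0.843), and for Il1b Btg2 (0.860), Cd86 (0.789) and Arl5c (0.782). For Il27 they were Ms4a4c (0.823), Ifi204 (0.812) and Ms4a6b (0.811), for Il10 Il2rg (0.818), Ubd (0.818) and Csf2ra (0.814), a chain of the GM-CSF receptor, and for Il6 Cxcl1 (0.665), Chil3 (0.648) and Stac3 (0.632). Il1a had the weakest likeness, with Clec4n at 0.624, Dcstamp at 0.587 and Tarm1 at 0.565.

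The ratio of the antagonist to its target cytokine, Il1rn to Il1b counts, had a mean of 3.53 in isotype control, 4.27 in aPD1, 2.49 in aPD1 + aGMCSF, 2.65 in aPD1 + aIL2RB and 3.64 in aPD1 + aGMCSF + aIL2RB tumors. The ratio of Acod1 to Nos2 counts had a mean of 0.514, 1.06, 0.429, 0.337 and 0.343 in the same order. Both ratios are descriptions within tumors and depend on the length of the genes.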

How the data were processed

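Bulk poly(A) RNA of 42 tumors was sequenced. Per the study's methods the authors aligned reads with Bowtie 1.2.3 to transcriptomes of the Collaborative Cross founders built on GRCm38 and deposited total expected counts per gene, that is estimated counts that need not be whole; 15.2% of values were not whole, and all were rounded to whole numbers here. Levels are CPM on TMM-scaled library sizes. Differences come from 1 edgeR 4.0.16 quasi-likelihood fit (R 4.3.3) with TMM factors over all 5 groups, 16932 genes after the filter on low counts (minimum 10, total 15), 37 residual degrees of freedom, Benjamini-Hochberg adjustment over all genes in each comparison and a threshold of 0.05; log2 differences carry standard errors. DESeq2 1.42.0 was an alternative. The scripts were tested on simulated data. The 10 members, the pathway and marker lists and the division by replicate number were chosen with earlier results of these data known, so they are not independent evidence. From the pathway lists up to 3 passing genes of largest change, with a mean log2 CPM of at least 1, were named by rule. Some genes not named by it changed more, such as Ltb at -2.89 and Il27ra at -2.28 in aPD1 + aIL2RB against aPD1. Ebi3, Ifng, Ptges, Ddah1, Ltb, Il27ra and genes named for a count of 5 or fewer were added after their values were seen. The labels call each tumor a biological replicate. Floors of 3 counts cover counting error only. Gene coordinates are those of the GENCODE annotation of GRCm38, and correlations use log2 CPM with a prior count of 2. No column was left unmapped. Some results for genes of the pathway lists are not reported here.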

Additional observations from a re-analysis of the deposited data

Results flagged for a closer look

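Of 30 groups of 4 to 10 tumors tested for a single distant value, 2 were flagged, where chance flags about 1 in 20. The lowest tumor was isotype control replicate 1 in both, for Il1rn, where its gap to the next tumor was 0.829 of the group's range of log2 CPM, and for Il27, where it was 0.725 and rests on 1 count.

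The estimated difference made by aIL2RB with aGMCSF, minus that without it, was farthest from 0 relative to its standard error for Acod1 (1.98 on the log2 scale), Il1rn (1.62) and Tnf (1.09), while the larger value of Il10 (2.19) had a larger standard error. The estimate contains the comparison taken to have chosen the members, so nothing is read from it.

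The difference between aPD1 + aGMCSF + aIL2RB and aPD1 was larger in the higher than in the lower replicate numbers for Acod1 (by -3.27), Nos2 (-1.28), Tnf (-1.47) and Il10 (-4.17), and that between aPD1 + aGMCSF + aIL2RB and aPD1 + aIL2RB for Acod1 (-2.54). The labels give no reason for the division by replicate number.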

How the results depend on the processing

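Members called, of 10, were as follows where the setting moved the count by over 1.5 times; those of aPD1 + aGMCSF against aPD1 and of the interaction use the comparison taken to have chosen the members, and nothing is read from them. Within the lower replicate numbers the count was 0 for aPD1 against isotype control, 0 for aPD1 + aGMCSF, 2 for aPD1 + aIL2RB and 0 for aPD1 + aGMCSF + aIL2RB against aPD1, and 0 for the interaction. Within the higher numbers it was 0 for the interaction, 3 for aPD1 + aGMCSF + aIL2RB against isotype control, 2 against aPD1 + aGMCSF and 1 against aPD1 + aIL2RB, with Acod1 in each. With at least 10 counts in every tumor, which leaves the low members untested, it was 5 for aPD1 + aGMCSF + aIL2RB against aPD1, and with a total of at least 5 counts it was 1 for the replicate set term. With 1 tumor left out the counts ran from 1 to 5 for aPD1 against isotype control. They ran from 0 to 1 for aPD1 + aGMCSF + aIL2RB against isotype control and from 0 to 4 for the interaction. For aPD1 + aGMCSF + aIL2RB against aPD1 they ran from 6 to 9, within 1.5 times of the count of 8. Replicate numbers were not shown to pair tumors, since correlations of same-numbered tumors were over 0.1 in 1 of 5 pairs for aPD1 against isotype control and in 1 or 2 of 6 for the comparisons with aPD1. The fit with a replicate block called 1 member, Il27 (1.51, adjusted p = 0.0475), in aPD1 + aIL2RB against isotype control and 0 in the interaction, took the call from Nos2 in aPD1 + aGMCSF + aIL2RB against aPD1 (adjusted p = 0.0578), and added Ptgs2 in aPD1 + aIL2RB against aPD1 (0.0428) and Il1b in aPD1 against isotype control (0.0292). Not every tumor correlated best with its own number.

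Direction turned for genes of few counts or within a set. Within the lower numbers Nos2 was at -0.14 and Il10 at -0.0595 in aPD1 against isotype control. Il6 turned in aPD1 against isotype control (-0.145 to 0.376 with 1 tumor left out), in aPD1 + aIL2RB against aPD1 (-0.363 to 0.349, and -0.12 with the replicate block), in aPD1 + aGMCSF + aIL2RB against aPD1 (-0.337 to 0.276, 0.0436 with library size only, 0.020 with the replicate set as a term and 0.46 in the lower numbers) and in the interaction (-0.0216 to 0.691, and -0.11 in the higher numbers). Il1b turned in the interaction with the replicate block (-0.0644). The cause was not tested. Of the 30 closest genes 11 were shared with Spearman's rho, 10 with group means subtracted and 6 with means of group and replicate set subtracted. Over all results and settings 1799 of 1954 values kept their direction and call, or for counts stayed within 1.5 times. Pathway genes called in aPD1 against isotype control numbered 3 by edgeR and 5 by DESeq2 for TNF signaling and 1 and 3 for arginine metabolism, and prostaglandin genes called in aPD1 + aGMCSF + aIL2RB against aPD1 4 and 6. Depth limits Il6, Il1a, Il10 and Il27, with few counts per tumor.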
